A study of Mus musculus with 24 samples.

Results

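Expression of 9 genes of neuroendocrine secretion and amine synthesis is described across mouse lung tumours driven by mutant epidermal growth factor receptor (EGFR) and normal mouse lungs. They are Ddc, Calca, Chga, Chgb, Syp, Uchl1, Resp18, Scg5 and Pcsk1. Members were all probe sets that the platform annotation assigned to 1 of these genes alone, which gave 10 probe sets for 8 of the 9 genes, among 18193 genes measured. Calca had no probe set annotated to it alone and was not analysed here. Ddc and Syp had 2 probe sets each and the other 6 genes had 1; of several probe sets, the one with the highest mean over all arrays stands for the gene.

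Expression was read on 24 Affymetrix MOE 430 2.0 arrays, each with the total RNA of 1 lung sample. The 14 tumours were visible nodules cut out by eye from mice with a pair of transgenes, kept on a doxycycline diet for 3 to 6 months. They comprised 4 L858R tumours of strain FVB mixed, and 5 L858R+T790M and 5 T790M tumours of strain FVB. L858R switches on the EGFR kinase and is common in human lung cancer, while T790M is the substitution best known for making EGFR tolerate kinase inhibitors. The 10 normal lungs came from littermates on doxycycline with no transgene or a single one, in sets of 5 of strain FVB (called FVB normals here) and 5 of strain FVB mixed (called mixed-strain normals). The promoter that drives the transgenes is not given in the sources used here, nor are the animal, sex, age or batch of each array. P-values therefore measure the spread between these samples, which may be technical.

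In the lung, pulmonary neuroendocrine cells are rare airway cells that store amines and peptides in dense-core granules and release them on stimulation. Aromatic L-amino acid decarboxylase, the product of Ddc, makes dopamine and serotonin from their amino acid precursors. Granule peptides are cut from prohormones by the convertases Pcsk1 and Pcsk2, of which the latter needs the chaperone 7B2, the product of Scg5. Chromogranins (Chga, Chgb) pack the granule, Resp18 is an endocrine granule protein, synaptophysin (Syp) sits in the membrane of small vesicles, and Uchl1 is a ubiquitin C-terminal hydrolase abundant in neurons and neuroendocrine cells. Calca encodes calcitonin and the calcitonin gene-related peptide.

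Promoter sequence was read from RefSeq on build GRCm38.p6 for all 8 measured genes, from 9 start sites. The 30 bases shown first are those around the motif TGACGTNA, a form of the cAMP response element, in the 250 bases before the start of granule and convertase genes, 5′ to 3′ along each gene's own strand, with the motif in capitals. Both strands were searched.
Chga, chr12:102554886-102554915, plus strand: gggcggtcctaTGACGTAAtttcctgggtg
Chgb, chr2:132781559-132781588, plus strand: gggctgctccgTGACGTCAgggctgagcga
Pcsk1, chr13:75089768-75089797, plus strand: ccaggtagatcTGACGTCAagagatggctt
The motif ended 37 bases before the start in Chga, 65 in Chgb and 71 in Pcsk1. The Pcsk1 start used and the stretch shown before it lie inside the bounds of the gene, chr13:75089420-75134861. The motif was present in 2.52% of 32851 promoters of the same length. The full palindrome TGACGTCA, which is contained in it, was present in Chgb and Pcsk1 and in 1.55% of all promoters. The E-box CAGCTG lay in the Resp18 promoter and at 2 places in that of Chga, against 13.0% of all promoters. The letters TTCAGCACC, the left part of the RE1 site, lay in no member promoter and in 0.301% of all.

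Ddc is shown whole because the largest member differences, in L858R and T790M tumours, were those of Ddc. The gene lies at chr11:11814101-11898144 on the minus strand and has 2 start sites in the table, of which the second lies inside the gene. The 250 bases before each are given 5′ to 3′ on the minus strand, and capitals mark TATAAA, here read on the other strand as TTTATA.
Ddc upstream start, chr11:11898145-11898394: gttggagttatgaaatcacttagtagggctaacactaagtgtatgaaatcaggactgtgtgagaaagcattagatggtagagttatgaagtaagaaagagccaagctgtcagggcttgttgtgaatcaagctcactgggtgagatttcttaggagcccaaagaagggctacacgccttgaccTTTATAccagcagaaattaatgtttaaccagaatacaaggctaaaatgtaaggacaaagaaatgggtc
Ddc inner start, chr11:11890409-11890658: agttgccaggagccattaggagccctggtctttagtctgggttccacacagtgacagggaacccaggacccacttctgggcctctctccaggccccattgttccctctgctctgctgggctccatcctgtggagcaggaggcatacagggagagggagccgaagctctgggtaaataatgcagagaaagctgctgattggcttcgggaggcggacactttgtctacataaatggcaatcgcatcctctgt
TATAAA was present in 12.4% of all promoters and, among the members, before the upstream start of Ddc.

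The median log2 level of an array ranged from 7.21 to 7.34. The first principal component over genes carried 58.1% of the variance and separated normal lungs from tumours, with T790M replicate 1 nearest to the normals. The second carried 8.63%, and T790M replicates 2 (-31.5) and 4 (-45.3) stood farthest out at one end, followed by L858R+T790M replicate 2 (-22.6). L858R+T790M replicate 5 (35.5) stood farthest out at the other end. The members, and Ptprn2, Hdc, Gch1 and Grb10 beside them, were also tested with T790M replicates 2 and 4 left out, a choice made after the data were seen. The rule, more than 1.5 SDs from 0 on this component, was applied to T790M arrays alone, so L858R+T790M replicate 5 was kept. Of the 8 genes, Ddc alone lay above the lowest tercile of all genes by mean level, with each gene taken at its brightest probe set. The other 7 lay within that tercile. Values below are log2 levels, differences are log2 values ± SE from limma, and a gene is called at an adjusted p under 0.05 over all 18193 genes. Levels of different probe sets are not compared with each other.

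Ddc had the largest differences of any member in L858R and T790M tumours, in opposite directions. It was 4.61-fold higher in T790M tumours than in FVB normals, 3.29-fold lower in L858R tumours than in mixed-strain normals, and not called in L858R+T790M tumours. In the T790M tumours, replicates 1 to 5, Ddc read 8.05, 10.15, 8.32, 11.35 and 8.49. In the FVB normals it read 6.75, 6.94, 7.75, 6.68 and 7.22. Every T790M tumour lay above every FVB normal, and replicates 2 and 4 lay well above the other three tumours.

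The 4 L858R tumours had Ddc levels of 5.67, 6.23, 6.62 and 5.81. The mixed-strain normals had 6.97, 7.33, 7.96, 8.19 and 8.56, so that all L858R tumours lay below all of their normals. The L858R+T790M tumours had 6.24, 8.11, 7.03, 6.18 and 5.65, and replicate 2 reached into the range of the T790M tumours while the other replicates lay within or below that of FVB normals. Fold changes follow from the group means of 9.27 (T790M), 7.07 (FVB normals), 6.08 (L858R), 7.80 (mixed-strain normals) and 6.64 (L858R+T790M).

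**Figure D1:**
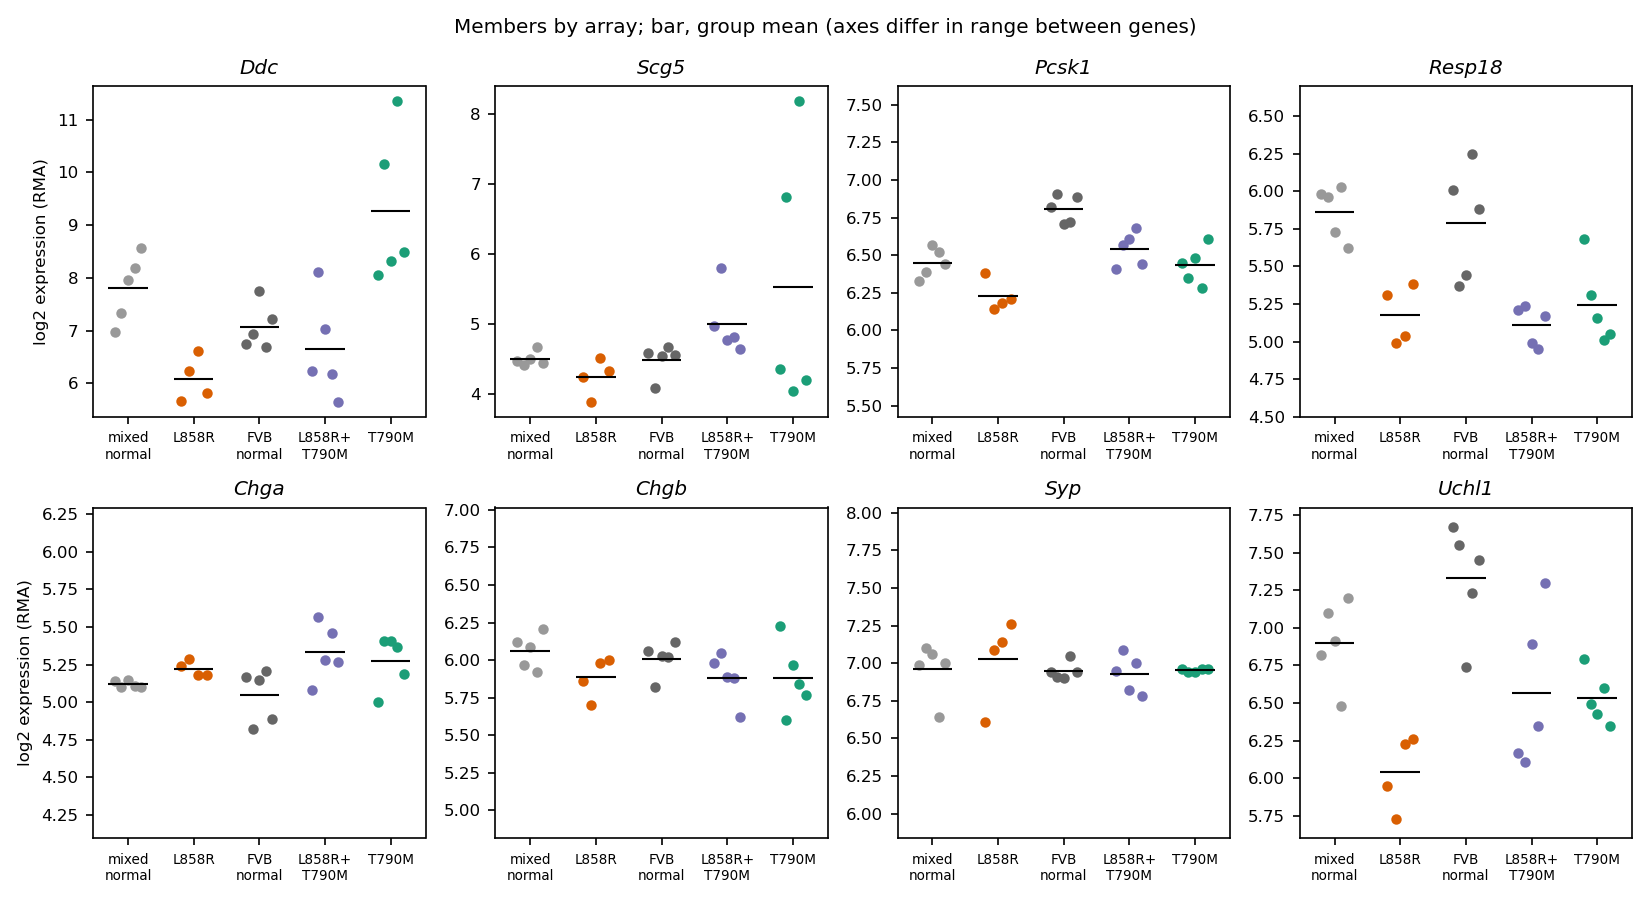
Log2 level of the 8 measured genes, each by its brightest probe set, on each of the 24 arrays, with points for arrays, black bars for group means and a vertical axis of its own for each gene. Ddc lies at 8.05 to 11.35 in T790M tumours and at 5.67 to 6.62 in L858R tumours, and Scg5 is highest in T790M replicates 2 and 4 (6.82 and 8.19).

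The difference for Ddc was 2.20 ± 0.52 in T790M tumours against FVB normals (adjusted p = 0.00184, n = 5 and 5). It was -1.72 ± 0.55 in L858R tumours against mixed-strain normals (adjusted p = 0.0159, n = 4 and 5). In L858R+T790M tumours it was -0.43 ± 0.52 (adjusted p = 0.573), with a 95% interval from -1.51 to 0.66, which leaves room for changes in both directions. Without T790M replicates 2 and 4 the T790M difference was 1.22 ± 0.43 and was still called (adjusted p = 0.0331). Leaving out single arrays moved it between 1.68 and 2.51, called in all 10 cases.

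Set directly against T790M tumours, L858R+T790M tumours had Ddc lower by -2.63 ± 0.52 (adjusted p = 0.0138, n = 5 and 5), a 6.19-fold difference. L858R+T790M replicate 2, at 8.11, lay just above the lowest T790M tumour, at 8.05, so the ranges overlapped. The call was lost without L858R+T790M replicate 1 (-2.53, adjusted p = 0.054) and in a fit to these 2 groups alone (adjusted p = 0.296). The latter fit called 0 of all 18193 genes, so the loss there is not particular to Ddc. The main fit shares a common spread over all 5 groups. The SD of Ddc was 1.423 in T790M and 0.957 in L858R+T790M tumours, and 0.43 to 0.645 in the other groups. Without T790M replicates 2 and 4 the difference was -1.64 ± 0.43 (adjusted p = 0.0430).

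L858R tumours were compared with the other genotypes after subtraction of the normals of each strain. The tumour effect on Ddc was lower in L858R than in T790M tumours by -3.92 ± 0.76 (adjusted p = 0.0187), and by -2.94 ± 0.58 without T790M replicates 2 and 4 (adjusted p = 0.0181). Against L858R+T790M tumours the same difference was -1.29 ± 0.76 (adjusted p = 0.624, 95% interval -2.87 to 0.29). Mixed-strain and FVB normals differed in Ddc by 0.73 ± 0.52 (adjusted p = 0.544), with levels of 6.97 to 8.56 and 6.68 to 7.75.

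The other Ddc probe set, 1430591_at, stayed between 5.82 and 6.43 on all 24 arrays. Its differences stood at 0.13 in L858R, -0.05 in L858R+T790M and 0.04 in T790M tumours, with adjusted p of 0.363, 0.75 and 0.814 among 45037 probe sets. The Ddc calls therefore rest on 1426215_at. The probe sets' positions within the gene were not analysed here.

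Scg5, the 7B2 chaperone, was not called in any tumour genotype against its normals, although it was high in T790M replicates 2 and 4. The T790M tumours read 4.36, 6.82, 4.05, 8.19 and 4.20. The FVB normals read 4.59, 4.08, 4.55, 4.67 and 4.56, so that T790M replicates 2 and 4 were raised and the other three lay below or within the normals. The L858R+T790M tumours read 4.98, 5.80, 4.78, 4.81 and 4.65, with replicate 2 the highest. Of these, replicates 1 to 4 lay above every FVB normal, and replicate 5 lay within their range. L858R tumours, at 4.25, 3.89, 4.52 and 4.33, and mixed-strain normals, at 4.41 to 4.68, overlapped.

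The Scg5 difference was 1.03 ± 0.53 in T790M tumours (adjusted p = 0.131, 95% interval -0.07 to 2.14), 0.51 ± 0.53 in L858R+T790M tumours (adjusted p = 0.497) and -0.25 ± 0.57 in L858R tumours (adjusted p = 0.752). The SE pools the spread of all 5 groups. The SD of Scg5 was 0.46 in L858R+T790M tumours, 0.234 in FVB normals and 1.875 in T790M tumours. In 10 other settings the L858R+T790M difference was 0.49 to 0.54 and not called (lowest adjusted p in limma = 0.0691). T790M replicates 2 and 4 decided the sign of the T790M difference. Without them it was -0.29 ± 0.19 (adjusted p = 0.275), and Scg5 was then called higher in L858R+T790M than in T790M tumours, by 0.80 ± 0.19 (adjusted p = 0.0313), where all 5 T790M tumours had given -0.52 ± 0.53 (adjusted p = 0.670). Without T790M replicate 3 or 5 the difference from FVB normals was called, at 1.40 (adjusted p = 0.04) and 1.36 (adjusted p = 0.0489).

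Pcsk1, the prohormone convertase, was slightly lower in all 3 tumour genotypes. L858R tumours read 6.38, 6.14, 6.18 and 6.21 and mixed-strain normals 6.33, 6.39, 6.57, 6.52 and 6.44, overlapping in L858R replicate 1. L858R+T790M tumours read 6.41, 6.57, 6.61, 6.68 and 6.44, T790M tumours 6.45, 6.35, 6.48, 6.28 and 6.61, and FVB normals 6.82, 6.91, 6.71, 6.72 and 6.89. All FVB tumours lay below all FVB normals.

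T790M tumours had Pcsk1 at -0.38 ± 0.07 from FVB normals (adjusted p = 0.000279) and L858R+T790M tumours at -0.27 ± 0.07 (adjusted p = 0.00556), which is 1.30- and 1.20-fold lower. L858R tumours had it at -0.22 ± 0.08 from mixed-strain normals (adjusted p = 0.0235), or 1.17-fold lower. The normals themselves differed by about as much, with Pcsk1 lower in mixed-strain than in FVB normals by -0.36 ± 0.07 (adjusted p = 0.0193) and no overlap. Against all 10 normals as 1 group, the differences in L858R+T790M and T790M tumours were -0.09 (adjusted p = 0.462) and -0.20 (adjusted p = 0.0821), and neither was called. The L858R call was lost with each array centred on its median (-0.17, adjusted p = 0.0928), with quantile normalization again (-0.18, adjusted p = 0.061) and with the replicate block (-0.21, adjusted p = 0.053). It also depended on L858R replicates 2 and 3 and on mixed-strain normals 3 and 4, each of which ended it when left out (-0.19 to -0.21). The call between normals was lost with quantile normalization again (-0.30, adjusted p = 0.0583) and without FVB normal 2 or 5 or mixed-strain normal 1 or 2.

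Among the granule proteins, Resp18 fell in all 3 genotypes, Chga was called in L858R+T790M tumours and close to the threshold in T790M tumours, and Chgb was not called. Resp18 read 5.31, 4.99, 5.04 and 5.38 in L858R tumours, against 5.98, 5.96, 5.73, 6.03 and 5.62 in mixed-strain normals. It read 5.21, 5.24, 4.99, 4.95 and 5.17 in L858R+T790M tumours, 5.68, 5.31, 5.16, 5.01 and 5.05 in T790M tumours, and 6.01, 5.37, 5.44, 6.25 and 5.88 in FVB normals. L858R and L858R+T790M tumours lay wholly below their normals, and T790M replicate 1 alone of its group reached into the range of the normals.

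Resp18 differed from mixed-strain normals by -0.68 ± 0.16 in L858R tumours (adjusted p = 0.00143), a 1.61-fold fall. From FVB normals it differed by -0.68 ± 0.15 in L858R+T790M tumours (adjusted p = 0.00108) and -0.55 ± 0.15 with T790M (adjusted p = 0.00558), which is 1.60- and 1.46-fold lower. The call held in each genotype with any single array left out. No difference between genotypes was called for Resp18.

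Chga read 5.08, 5.57, 5.28, 5.46 and 5.27 in L858R+T790M tumours and 5.17, 4.82, 5.15, 5.21 and 4.89 in FVB normals, with an overlap through L858R+T790M replicate 1. The difference was 0.28 ± 0.09 (adjusted p = 0.0177), and the call was lost without FVB normal 2 or 5 or L858R+T790M replicate 2 or 4, where it was 0.22 to 0.25 with adjusted p of 0.0517 to 0.0642, and in the fit to these 2 groups alone (adjusted p = 0.0568). In T790M tumours, at 5.00 to 5.41, it was 0.23 ± 0.09 (adjusted p = 0.0512). It was called there with quantile normalization again (0.28, adjusted p = 0.0142), with array weights (0.22, adjusted p = 0.0452) and without FVB normal 1, 3 or 4 or T790M replicate 1 or 5 (0.25 to 0.30), but stood at 0.15 ± 0.10 without T790M replicates 2 and 4 (adjusted p = 0.284). In L858R tumours Chga was 0.10 ± 0.10 above mixed-strain normals (adjusted p = 0.421), although the 5.18 to 5.29 of the tumours lay above the 5.10 to 5.15 of the normals. Chgb lay between 5.6 and 6.23 in all groups and was not called in any comparison, with differences from the normals of -0.18 ± 0.11, -0.13 ± 0.10 and -0.13 ± 0.10 in L858R, L858R+T790M and T790M tumours.

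**Figure D2:**
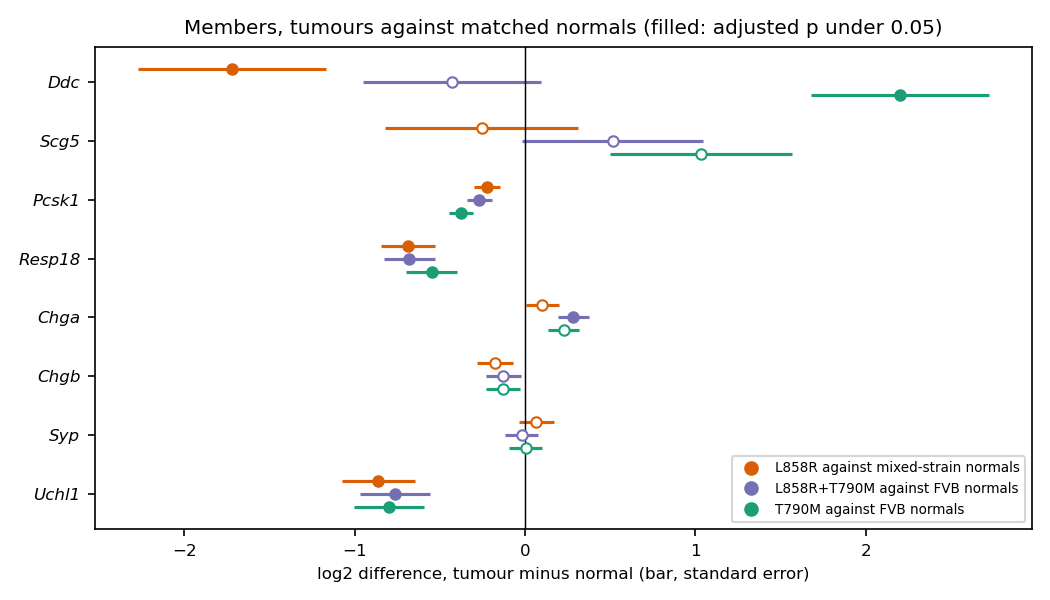
Log2 difference of each member gene from the normal lungs of the same strain label in the 3 tumour genotypes, with bars of 1 standard error from limma and filled points for called differences. Ddc is at 2.20 in T790M and -1.72 in L858R tumours, while Uchl1 and Resp18 lie below 0 in all 3 genotypes.

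Synaptophysin was measured by a pair of probe sets that gave different results. The brighter, 1456249_x_at, lay between 6.61 and 7.26 over all arrays and was not called, with 0.07 ± 0.10 in L858R, -0.02 ± 0.10 in L858R+T790M and 0.00 ± 0.10 in T790M tumours. Its name marks probes that may bind other transcripts too. The other, 1448280_at, read 6.33, 6.14, 6.36, 6.42 and 6.23 in L858R+T790M tumours and 6.69, 6.91, 6.54, 6.54 and 6.60 in FVB normals, with no overlap. It was lower by -0.36 ± 0.08 in L858R+T790M tumours (adjusted p = 0.00171) and by -0.27 ± 0.09 in L858R tumours (adjusted p = 0.0189), and stood at -0.21 ± 0.08 in T790M tumours (adjusted p = 0.0512), among all 45037 probe sets.

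Uchl1 fell in all 3 genotypes. It read 5.95, 5.73, 6.23 and 6.26 in L858R tumours, against 6.82, 7.10, 6.91, 6.48 and 7.20 in mixed-strain normals. It read 6.17, 6.11, 6.89, 6.35 and 7.30 in L858R+T790M tumours, 6.79, 6.49, 6.43, 6.60 and 6.35 in T790M tumours, and 7.67, 7.55, 6.74, 7.23 and 7.45 in FVB normals. The L858R tumours lay below all of their normals, while in the FVB groups T790M replicate 1 and L858R+T790M replicates 3 and 5 reached above FVB normal 3, the lowest normal, and the last of these above FVB normal 4 too.

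Uchl1 lay 1.81-fold below mixed-strain normals in L858R tumours (-0.86 ± 0.22, adjusted p = 0.00291). It lay 1.74-fold below FVB normals in T790M tumours (-0.80 ± 0.20, adjusted p = 0.00356) and 1.70-fold below them in L858R+T790M tumours (-0.76 ± 0.20, adjusted p = 0.00525). All 3 calls held with any single array left out. No difference between genotypes was called, and the 95% interval for L858R+T790M against T790M tumours ran from -0.39 to 0.46. In bulk tissue, fewer cells of a type and less RNA per cell cannot be told apart. Among 12 measured nerve and Schwann cell markers, 1 rose and 2 fell in L858R, 0 rose and 2 fell in L858R+T790M, and 1 rose and 3 fell in T790M tumours, where 18.1%, 16.1% and 17.9% of all genes fell. Their median differences were 0.10, -0.03 and -0.04, while the mean level of the list was 6.72 to 6.90 in normal lungs and 6.26 to 6.61 in tumours. A pair of its genes had large falls. Stmn2, a microtubule regulator of neurons, was at -2.75, -3.09 and -3.02 and Gap43, a growth cone protein, at -2.21, -2.11 and -1.71 in the 3 genotypes in that order. The part of such cells in the Uchl1 result was not tested.

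Counted over the 8 genes, 4 were called in L858R tumours, 0 higher and 4 lower, against 41.4% of all genes (23.3% higher, 18.1% lower). In L858R+T790M tumours 4 were called, 1 higher and 3 lower, against 36.2% of all genes (20.2% higher, 16.1% lower). In T790M tumours 4 were called, 1 higher and 3 lower, against 39.8% (21.9% higher, 17.9% lower). The totals are near the background, while more members were lower and, in L858R tumours, fewer higher than these shares; with 8 genes chosen with results known, this carries no test. The calls in L858R+T790M and T790M tumours share the FVB normals. Without T790M replicates 2 and 4, 4 members were called in T790M tumours: Ddc as given above, Uchl1 (-0.80, adjusted p = 0.016), Resp18 (-0.49, adjusted p = 0.0356) and Pcsk1 (-0.30, adjusted p = 0.00635).

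Between L858R+T790M and T790M tumours 1 member, Ddc, was called, against 1.59% of all genes. Ddc was also the 1 member called between L858R and T790M tumours after strain adjustment (0.418% of all genes), and 0 members were called between L858R and L858R+T790M tumours (0.0715% of all genes), also 0 at an unadjusted limma p under 0.05. Between the normals Pcsk1 was the 1 member called (1.04% of all genes). Where ranges were compared in place of the test, 4 members in L858R, 2 in L858R+T790M and 2 in T790M tumours did not overlap with their normals, against 35.8%, 29.8% and 29.8% of all genes.

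Among the 14 tumours, Ddc and Scg5 varied together within genotypes. With genotype means subtracted, Pearson's r was 0.889 (adjusted permutation p = 0.0014) and Spearman's rho 0.82 (adjusted permutation p = 0.0199), over 28 pairs of members and 100000 permutations. Without the 2 tumours farthest from the median of Ddc, r was 0.797 (n = 12, adjusted permutation p = 0.0476). These were T790M replicate 4 and L858R+T790M replicate 2, so T790M replicate 2 stayed in. The genotype means of all 14 tumours were kept, so the value does not remove the influence of the tumours left out. No other pair had an adjusted p under 0.05. Ddc and Chga, at r = 0.546, and Scg5 and Pcsk1, at r = -0.533, had an unadjusted permutation p of 0.0434 and 0.0464 and an adjusted p of 0.433. The high tumours in both Ddc and Scg5 were T790M replicates 2 and 4 and, within its own group, L858R+T790M replicate 2, the 3 arrays that also stood farthest out at one end of the second principal component.

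**Figure D3:**
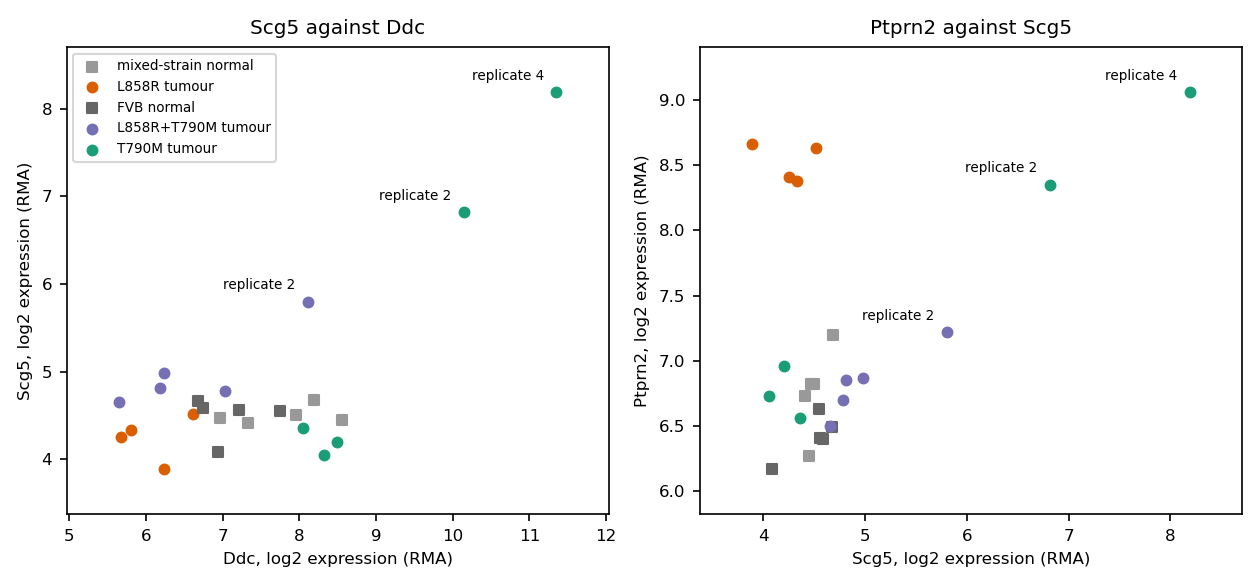
Log2 levels of Scg5 against Ddc and of Ptprn2 against Scg5, 1 point per array, coloured by group. T790M replicates 2 and 4 have the highest Ddc (10.15 and 11.35) and the highest Scg5 (6.82 and 8.19), and the L858R tumours have high Ptprn2 (8.38 to 8.66) with low Scg5 (3.89 to 4.52).

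Ddc and Scg5 were the members with a range of at least 2 log2 units among tumours, 5.7 for Ddc and 4.3 for Scg5. The 3 genes most like Ddc over the 14 tumours, by r after subtraction of genotype means, were Snhg17 (0.956), Qtrt1 (0.955), a subunit of a tRNA-modifying enzyme, and Stra8 (0.955), a gene of meiotic entry. Those most like Scg5 were Chml (0.979), 2610316D01Rik (0.967) and Ptprn2 (0.967), a transmembrane protein of dense-core granules. Without the 2 farthest tumours, and with the genotype means of all 14 kept, these 6 values were 0.892, 0.908, 0.903, 0.939, 0.923 and 0.903 in the same order. They were the highest of all genes by choice and carry no test.

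Ptprn2 read 6.56, 8.35, 6.73, 9.06 and 6.96 in T790M tumours, high in the same replicates 2 and 4 as Scg5. The L858R tumours, at 8.38 to 8.66, lay above all mixed-strain normals, at 6.27 to 7.20, without a rise in Scg5. Ptprn2 was called higher in L858R (1.75 ± 0.35, adjusted p = 0.000349) and T790M tumours (1.11 ± 0.33, adjusted p = 0.00974), and stood at 0.41 ± 0.33 in L858R+T790M tumours (adjusted p = 0.366). Without T790M replicates 2 and 4 the T790M difference was 0.33 ± 0.17 and was not called (adjusted p = 0.139).

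Genes next to the members on GRCm38 were set beside them. Fignl1, a DNA repair gene that lies before Ddc, was at 1.21 ± 0.28 in T790M tumours (adjusted p = 0.00155), 1.11 ± 0.30 in L858R tumours (adjusted p = 0.00471) and 0.36 ± 0.28 in L858R+T790M tumours (adjusted p = 0.341). It was therefore higher where Ddc was lower, in L858R tumours, and where Ddc was higher, in T790M tumours. 1700042O10Rik, which lies within the bounds of Ddc, was not called in any tumour genotype. Grb10, an imprinted adaptor of growth factor receptors at chr11:11930499-12037428, was looked at after the values were seen. It read 10.36, 9.47, 10.45, 9.10 and 10.51 in T790M tumours and was lowest in replicates 2 and 4, where Ddc was highest. Over the 14 tumours with genotype means subtracted, r between Ddc and Grb10 was -0.87, rho -0.815, and r without the 2 farthest tumours -0.703. The last value kept the genotype means of all 14 tumours. Grb10 was called in no comparison with normals (-0.05 ± 0.24, -0.31 ± 0.22 and -0.09 ± 0.22). Without T790M replicates 2 and 4 it was called lower in L858R+T790M than in T790M tumours (-0.68 ± 0.17, adjusted p = 0.0313), where all 5 T790M tumours had given -0.22 ± 0.22 (adjusted p = 0.670).

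Around Uchl1 on chromosome 5, both neighbours fell with it. Limch1 was at -2.06, -1.76 and -2.17 and Apbb2 at -0.56, -0.61 and -0.66 in L858R, L858R+T790M and T790M tumours, all called. Around Pcsk1, Syp and Scg5 a neighbour rose in all 3 genotypes, Ell2 by 1.36, 1.07 and 0.92, Plp2 by 0.79, 0.94 and 0.69 and Arhgap11a by 1.51, 0.85 and 1.54. Ell2 is a factor of transcription elongation. Beside Resp18, Dnpep rose in all 3 genotypes (0.66, 0.59 and 0.59) and Ptprn, which encodes another granule membrane protein, was not called.

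The other genes of amine synthesis, storage and breakdown moved in both directions. Of 19 measured, 8 rose and 2 fell in L858R, 5 rose and 3 fell in L858R+T790M, and 5 rose and 3 fell in T790M tumours, with list medians of 0.26, 0.01 and -0.05 against 0.05, 0.03 and 0.00 over all genes. Of all genes, 23.3% rose and 18.1% fell in L858R, 20.2% and 16.1% in L858R+T790M, and 21.9% and 17.9% in T790M tumours. The counts of this list and of those below stand beside these shares. Of 5 genes that make or recycle tetrahydrobiopterin, the cofactor of tyrosine and tryptophan hydroxylases, Pcbd1, Spr and Pts rose in all 3 genotypes, Gch1 in L858R and L858R+T790M tumours, and Qdpr was not called. Pcbd1, which recycles it, rose by 1.5 ± 0.24, 1.57 ± 0.23 and 1.81 ± 0.23, and Spr, the last enzyme of its synthesis, by 0.71 ± 0.23, 0.73 ± 0.21 and 0.86 ± 0.21 (adjusted p of 0.0157 or lower for both genes in the 3 genotypes). The hydroxylases Th and Tph1 were not called, with differences of 0.11, -0.13 and -0.15 for Th and 0.24, -0.05 and -0.19 for Tph1.

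Gch1, the first enzyme of tetrahydrobiopterin synthesis, followed the reverse order to Ddc between the FVB genotypes. It read 10.10, 9.18, 9.26, 9.95 and 10.06 in L858R+T790M tumours and 8.53, 9.37, 8.71, 7.92 and 8.41 in T790M tumours, where replicate 2 alone overlapped. The difference was 1.12 ± 0.21 (adjusted p = 0.0109), and 1.16 ± 0.19 without T790M replicates 2 and 4 (adjusted p = 0.00249), while Ddc was lower by -2.63 in the same comparison. Neither the Gch1 call nor that of Ddc held in the fit to these 2 groups alone, which called 0 of all 18193 genes. Hdc, which makes histamine, rose in T790M tumours, which read 12.16, 11.27, 12.63, 12.57 and 11.82 against 10.10 to 10.75 in FVB normals (1.63 ± 0.47, adjusted p = 0.00823). Without T790M replicates 2 and 4 the Hdc difference was 1.75 ± 0.55 (adjusted p = 0.0181). It was not called in L858R (0.82 ± 0.50, adjusted p = 0.2) or L858R+T790M tumours (1.06 ± 0.47, adjusted p = 0.0847).

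The genes of this list that fell included transporters and an oxidase. Slc6a2, the noradrenaline transporter, was at 6.45 to 8.87 in tumours and 8.75 to 11.64 in normals, with differences of -2.21 ± 0.47, -3.34 ± 0.45 and -3.81 ± 0.45 in L858R, L858R+T790M and T790M tumours. Maoa, a monoamine oxidase, fell by 0.94, 0.93 and 0.52 on the log2 scale, while Maob, the other one, rose in L858R (0.38) and T790M (0.40) tumours and stood at 0.23 in L858R+T790M tumours (adjusted p = 0.192). Slc6a4, the serotonin transporter, fell in L858R+T790M (-0.64) and T790M (-0.84) tumours and stood at 0.27 in L858R tumours (adjusted p = 0.383). Endothelial markers fell in the same tumours: all 8 measured markers fell in L858R and L858R+T790M and 7 in T790M tumours, and their mean was 11.41 to 12.02 in normals and 8.25 to 10.84 in tumours. The part of endothelial cells in these falls was not tested.

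**Figure D4:**
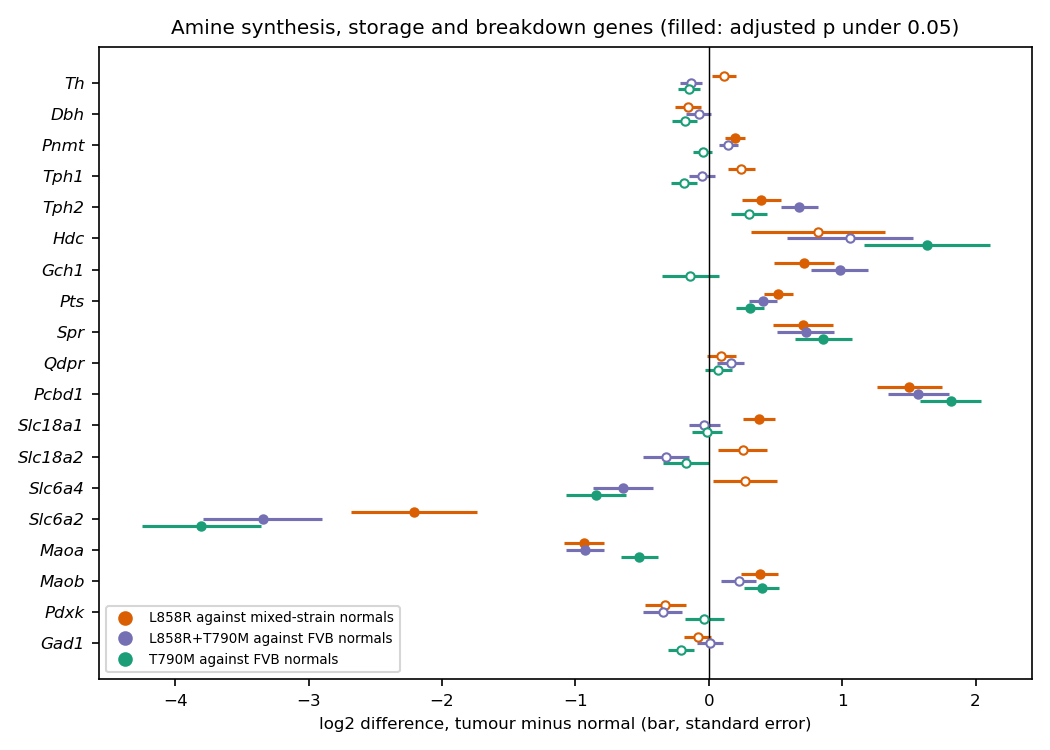
Log2 difference from the normal lungs of the same strain label for the 19 measured genes of amine synthesis, storage and breakdown, 1 point per tumour genotype, with bars of 1 standard error and filled points for called differences. Slc6a2 lies farthest below 0 in all 3 genotypes (-2.21, -3.34 and -3.81), and Gch1 is filled in L858R and L858R+T790M tumours but not in T790M tumours (-0.14).

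Other genes of granule cargo and prohormone processing split. Of 16 measured, 5 rose and 4 fell in L858R, 4 rose and 5 fell in L858R+T790M, and 3 rose and 5 fell in T790M tumours. The processing enzymes Pcsk5 (-1.90, -1.56 and -1.48), Pam (-1.45, -1.08 and -0.93), which amidates peptides, and Cpe (-1.21, -1.83 and -0.91), a carboxypeptidase, fell alongside the small fall of Pcsk1. The convertase Pcsk6 (1.44, 2.20 and 2.06) and Nucb2 (1.22, 0.86 and 1.17), the nesfatin precursor, rose. Cpe was also lower in L858R+T790M than in T790M tumours (-0.92 ± 0.24, adjusted p = 0.0498), a value at the threshold. It was not called in the fit to these 2 groups alone, which called 0 genes.

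In the list of regulated exocytosis and synaptic vesicles, of 19 measured, 2 rose and 3 fell in L858R, 1 rose and 4 fell in L858R+T790M, and 2 rose and 6 fell in T790M tumours. Rab27a, a GTPase of secretory organelles in many cell types, rose by 2.17, 1.73 and 2.03. The synaptic genes Stx1a (-0.51, -0.26 and -0.26) and Cplx2 (-0.42, -0.34 and -0.32) fell by small amounts.

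Of 15 airway neuropeptides, 2 were called higher and 0 lower in L858R, 2 higher and 2 lower in L858R+T790M, and 0 higher and 1 lower in T790M tumours. Over all genes, 41.4%, 36.2% and 39.8% were called in these genotypes. The peptides called lower were Calcb and Grp, while those called higher are not named here. Calcb, which encodes a second calcitonin gene-related peptide, read 7.16, 7.82, 6.91, 6.52 and 5.80 in FVB normals and 5.17 to 5.80 in FVB tumours (-1.39 ± 0.22 with T790M, adjusted p = 3.97e-05, and -1.14 ± 0.22 with L858R+T790M, adjusted p = 0.000316). Mixed-strain normals were already low, at 5.53 to 6.00, and differed from FVB normals by -1.07 ± 0.22 (adjusted p = 0.024). Grp, the gastrin-releasing peptide of pulmonary neuroendocrine cells, fell in L858R+T790M tumours (-1.15 ± 0.29, adjusted p = 0.00369) and was not called in L858R (-0.53) or T790M (-0.38) tumours. The L858R tumours, at 7.41 to 7.83, nevertheless lay below all mixed-strain normals, at 7.93 to 8.53. Between L858R+T790M and T790M tumours Grp was not called (-0.77 ± 0.29, adjusted p in limma = 0.179).

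Receptors for calcitonin family peptides were among the genes that fell. Of 8 genes of this list, 2 rose and 3 fell in L858R, 1 rose and 3 fell in L858R+T790M, and 1 rose and 4 fell in T790M tumours. Calcrl, the shared receptor, was at -2.11, -2.14 and -2.51, its partner Ramp2 at -3.05, -3.11 and -2.95, and Calcr, the calcitonin receptor, at -1.98, -0.97 and -1.12. Ramp1, the partner that makes Calcrl a receptor for calcitonin gene-related peptide, rose in L858R tumours (1.73 ± 0.35, adjusted p = 0.00043). Calcrl and Ramp2 are widely expressed in endothelium, whose markers fell in the same tumours as given above. The part of endothelial cells in the falls of Calcrl and Ramp2 was not tested.

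Markers that define neuroendocrine cells moved in both directions. Of 17 transcription factors, 6 rose and 1 fell in L858R, 3 rose and 2 fell in L858R+T790M, and 4 rose and 2 fell in T790M tumours. Those that rose in all 3 genotypes included Hes6 (0.60, 0.63 and 0.59), Foxa2 (0.56, 0.66 and 0.76), a factor of airway and alveolar epithelium at large, and Rest (0.32, 0.46 and 0.36), a repressor of neuronal genes. Dll1, a Notch ligand, fell by 1.34, 1.67 and 1.61. Of 11 surface and cytoplasmic markers, 3 rose and 2 fell in L858R, and 2 rose and 2 fell in each of the other genotypes, led by Bex1 (2.06, 1.75 and 2.21) and, downwards, the potassium channel Kcnk3 (-0.96, -1.21 and -0.89). Eno2, neuron-specific enolase, rose in L858R+T790M tumours (1.23 ± 0.32, adjusted p = 0.00428). Between L858R+T790M and T790M tumours, where 1.59% of all genes were called, 1 of these factors and 1 of these markers were called, both lower. They were Foxa1 (-0.67 ± 0.15, adjusted p in limma = 0.0278) and Cd24a (-1.25 ± 0.29, adjusted p = 0.0332). Neither was called in the fit to these 2 groups alone, which called 0 genes.

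The remaining lists describe the tissue around the members. Of 5 ubiquitin hydrolase genes and partners measured besides Uchl1, 2 rose in L858R tumours and 0 were called in the other genotypes. Of 15 genes of the cAMP response, the pathway of the TGACGTCA motif, 2 rose and 3 fell in L858R, 1 rose and 3 fell in L858R+T790M, and 0 rose and 6 fell in T790M tumours. Alveolar type 2 markers rose (8, 8 and 7 of 9) and club cell markers fell (6, 6 and 5 of 8) in L858R, L858R+T790M and T790M tumours. Macrophage markers rose in L858R tumours (5 of 8, with 1 lower), with 1 higher in L858R+T790M and 1 lower in T790M tumours.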

How the data were processed

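The deposited values are log2 probe set levels that the authors summarised by RMA, as the submitters' processing notes record; the RMA version is not given in the sources used here. They were used without further normalization. Of 45101 probe sets, 64 controls were left out, and 34945 had 1 gene in the platform annotation, 932 several and 9160 none. Symbols were updated by Entrez identifier for 34741 and kept for 204. Each of 18193 genes took its brightest probe set. Group means were fitted in limma 3.58.1 (R 4.3.3; 19 residual degrees of freedom, eBayes with trend), with two-sided p adjusted by Benjamini-Hochberg over all genes of a comparison. L858R tumours were compared with the other genotypes as a difference between tumour effects. The number of arrays per group, 4 or 5, limits the precision.

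The members and 14 gene lists were chosen with earlier results of these data known. Of the lists' 184 entries, 170 were measured. Named from them, in each comparison with normals, were genes among the 3 highest and 3 lowest called differences, the hydroxylases Th and Tph1, neighbours measured on each side of a member, and the 3 genes most correlated with a member that varied widely. Foxa1 and Cd24a were also named, for their calls between L858R+T790M and T790M tumours. Alternatives were both scalings, every probe set, a filter on dim genes, array weights, no trend, pooled normals, the groups compared alone, the replicate block, stricter thresholds, and leaving out arrays. The model was tested on simulated data.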

Additional observations from a re-analysis of the deposited data

Results flagged for a closer look

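Within groups of 4 or 5 arrays, 4 of 50 groups of values held an array far from the others (8.0%), where chance gives about 1 in 20. Scg5 read 5.80 in L858R+T790M replicate 2, with the nearest array at 4.98, and 4.08 in FVB normal 2, with the nearest at 4.55. Syp (1456249_x_at) read 7.05 in FVB normal 4, with the nearest at 6.94, and 6.64 in mixed-strain normal 4, with the nearest at 6.99. The tumour effect on Ddc differed between genotypes, by -3.92 on the log2 scale in L858R against T790M tumours after strain adjustment (adjusted p = 0.0187 in limma).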

How the results depend on the processing

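Counts of called members stayed within 1.5 times the reported ones in 147 of 168 alternative fits. In L858R tumours the 4 calls became 2 at an adjusted p under 0.01, and 1 with a change of at least 2-fold or without the dimmest genes, which drops 7 of the 8 members. In L858R+T790M tumours 4 became 0 under the same fold and dim-gene filters, and in T790M tumours 4 became 1. Between L858R+T790M and T790M tumours 1 became 0 at the stricter p and with only these groups, where 0 of all genes were called, and 2 without T790M replicates 2 and 4. The direct difference of L858R and L858R+T790M tumours, with no normals subtracted, gave 1 in place of 0 (Pcsk1, -0.31, adjusted p = 0.0336, opposite in sign to the 0.05 after strain adjustment). Between L858R and T790M tumours 1 became 0 at the stricter p, and between normals 1 became 0 at the stricter p, with the fold filter, without dim genes and with quantile normalization again. Leaving out single arrays gave 3 to 4, 3 to 4 and 4 to 6 calls in L858R, L858R+T790M and T790M tumours, 0 to 1 between L858R+T790M and T790M tumours, 0 between L858R and L858R+T790M, 1 between L858R and T790M, and 0 to 1 between normals.

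For single members, 40 values lost their call, 11 gained one, 5 turned sign and 1301 did neither. Where neither the reported nor the alternative value was called, no direction was given. In each of the 5 that turned sign, either the reported or the alternative value was not called. Besides Pcsk1 above, signs turned for Ddc with its other probe set in L858R tumours (0.13) and for L858R against T790M (0.10), for Syp with its other probe set in L858R tumours (-0.27), and for Scg5 in L858R+T790M against T790M without T790M replicates 2 and 4 (0.80). The causes were not tested. With the replicate number as a block, 3, 4 and 4 members were called in L858R, L858R+T790M and T790M tumours, 1 between L858R+T790M and T790M, 0 and 1 in the strain-adjusted comparisons and 1 between normals. The labels do not say that replicate numbers pair the samples, and not every pair of a comparison correlated above 0.1, so the block was not used for the reported values. An array correlated best with its own number in 0 of 8, 1 of 10, 6 of 10, 5 of 10 and 1 of 10 arrays of the 5 unadjusted comparisons, and 4 of the 5 pairs of L858R+T790M and T790M tumours had r of 0.208 to 0.44, a hint from the data and not from the design. Of the members, 7 of 8 lie in the lowest tercile of mean level.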
